A study of Homo sapiens with 10 samples.

Results

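The 48 genes described here act in G2 phase and mitosis. They were matched by gene symbol in the deposited RNA-seq tables of QGP-1 cells, an established human pancreatic neuroendocrine tumor line, and all 48 were found among 35606 gene IDs. The series holds 10 samples, 2 in each of 5 groups. In the knockdown table, stable QGP-1 lines that express CRISPR interference (dCas9 joined to the KRAB repressor, which silences a gene at its start) carried either the control guide sgNC or the guide sgPIKFYVE-1 against PIKFYVE, a lipid kinase of endosomes and lysosomes. Both lines were infected and selected with puromycin, and a single guide stands for the knockdown. In the drug table, wild-type QGP-1 cells received DMSO as vehicle, 1 µM apilimod, which inhibits PIKfyve, or 100 nM Torin-1, which inhibits mTOR; the labels give 24 h for both drugs, and the study's legends a shorter exposure. Nothing in the labels says whether the 2 samples of a group came from separate cultures, so the p-values measure only the spread between these samples, which may be technical.

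Cells enter mitosis when cyclin B and CDK1 become active, a step promoted by the CDC25 phosphatases and by PLK1 and Aurora kinases. The spindle assembly checkpoint then holds the anaphase-promoting complex (APC/C) back until chromosomes are attached, after which CDC20 and UBE2C help it to mark securin (PTTG1) and cyclin B for destruction and separase (ESPL1) cuts cohesin. Most of these genes are transcribed together late in the cycle under the MuvB complex with MYBL2 (B-MYB) and FOXM1, and are held down in resting cells by the DREAM complex, whose core binds a promoter element called CHR. Their mRNA in a culture therefore depends on the share of cells in late cycle phases as well as the RNA per cell. In bulk RNA, fewer cells of a kind and less RNA per cell cannot be told apart.

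Values are CPM (reads of a gene scaled to a common library size) after TMM scaling by the authors, each table on its own. The samples held an estimated 9.30 to 13.6 M reads, at which 3 reads equal 0.227 to 0.329 CPM, and column totals were 972493 to 1024332. PIKFYVE itself measured 101 and 97.5 CPM with sgNC and 10.9 and 12.5 CPM with sgPIKFYVE-1, 11.8% of the control mean. In the drug table it measured 72.0 and 69.9 CPM with DMSO, 83.7 and 81.9 CPM with apilimod and 77.6 and 76.6 CPM with Torin-1. Of 12 neuroendocrine markers, 11 were at or above 1 CPM in all 10 samples and NEUROD1 was not, whereas of 13 markers of other cell types CD3E, KRT5, CPA1, INS and GCG were at 0 in all of them. COL1A1 and PECAM1 were above 3 reads in all 10 samples. The 13 summed to 9.91 and 10.7 CPM with DMSO, 20.3 and 18.6 CPM with apilimod and 18.99 and 22.9 CPM with Torin-1. In the knockdown table they summed to 13.7 and 15.1 CPM with sgNC and 11.5 and 9.77 CPM with sgPIKFYVE-1. COL1A1 was the largest part there, at 9.46 and 9.60 CPM with sgNC and 7.23 and 5.61 CPM with sgPIKFYVE-1. With DMSO it measured 1.27 and 2.41 CPM. The gap between the drugs and DMSO lay mostly in PRSS1 (trypsinogen, uncertain for its near-identical relatives), which measured 5.65 and 5.34 CPM with DMSO, 14.9 and 13.2 CPM with apilimod and 11.9 and 17.97 CPM with Torin-1 and was called higher with both. The 13 mitochondrial genes summed to 85188 and 85832 CPM with sgPIKFYVE-1, above 68258 and 68824 CPM with sgNC and 74068 to 77622 CPM in the drug table; the part of these and of the other markers in the results was not tested.

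The summed level of the 48 genes was lower in the CRISPRi lines than in the drug table. It was 2528 and 2571 CPM with sgNC and 3618 and 3723 CPM with sgPIKFYVE-1, against 11283 and 11319 CPM with DMSO, 9919 and 9923 CPM with apilimod and 9095 and 9334 CPM with Torin-1. Relative to each table's own control, the sum was 144% with sgPIKFYVE-1, 87.8% with apilimod and 81.5% with Torin-1. Across the 47 genes measured in both tables, the DMSO mean was a median of 4.58-fold the sgNC mean. Fold values and log2 differences in this paragraph are of mean CPM + 1. The log2 difference ran from UBE2C at the top (2.64) to CDC25B at the bottom (0.32). All 47 were higher with DMSO. CDC25B was an exception with sgPIKFYVE-1, where its mean was 261 CPM against 231 CPM with DMSO. Over all 13235 genes the same median was 0.996-fold, and for neuroendocrine markers it was 0.989-fold. Other cell cycle lists stood higher with DMSO too: the median was 4.0004-fold for 50 other mitotic genes, of which 50 were higher with DMSO, and 3.24-fold for 46 G1/S and replication genes, of which 45 were higher. The tables were normalized separately and differ in line, selection and vehicle, so this difference between controls was not tested and is given as a level only.

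**Figure D1:**
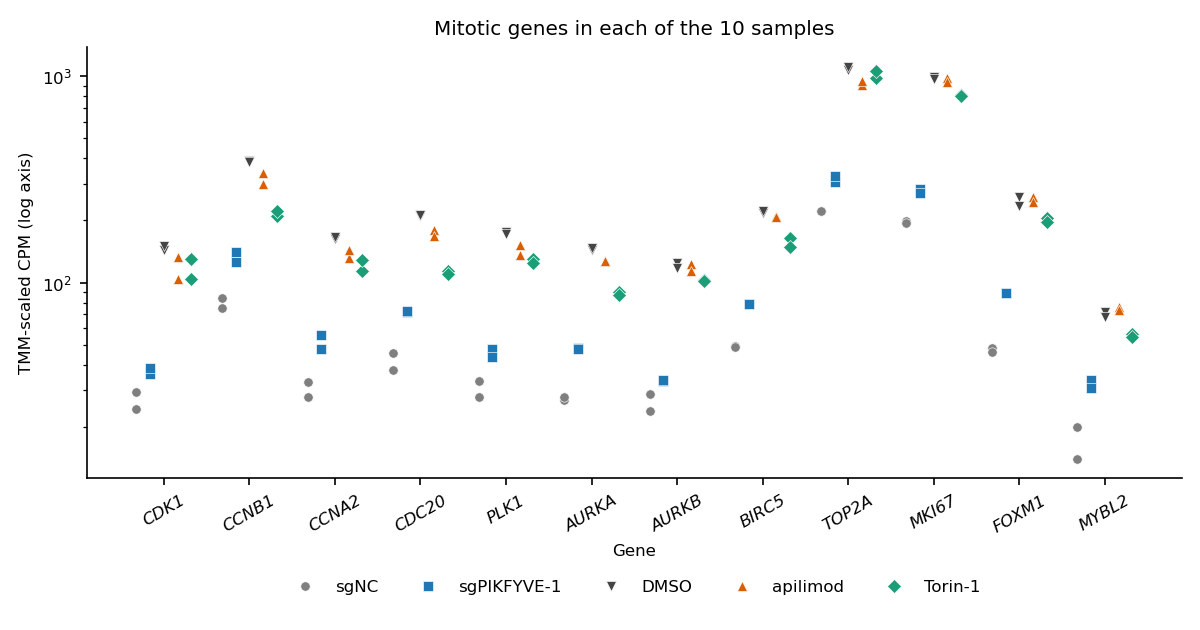
TMM-scaled CPM on a log axis of 12 core mitotic genes in each of the 10 samples, 1 point per sample. Every gene lies lowest with sgNC, higher with sgPIKFYVE-1, and higher still in the drug table, where the Torin-1 points lie below DMSO for all 12 genes.

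Knockdown of PIKFYVE went with higher mRNA of nearly the whole group. A gene was tested where its mean over the samples of the table was at least 1 CPM, which left out SPC25, a subunit of the NDC80 complex, at 0 and 0.308 CPM with sgNC and 0 and 1.54 CPM with sgPIKFYVE-1. Of the 47 genes tested, 42 rose and 0 fell at an adjusted p under 0.05 (limma on log2(CPM + 1), Benjamini-Hochberg over all 13591 genes tested), while 21.6% of all genes rose and 20.9% fell. Both sgPIKFYVE-1 samples lay above both sgNC samples for all 47 genes, as they did for 35.4% of all genes. The median log2 fold change of the 47 was 0.52, beside -0.004 for all genes, and no gene of the group reached a log2 fold change of 1.5. The call held for 34 of the 42 under every alternative of filter, scaling, variance model and left-out sample. With a sample left out, 5 lost it: AURKB and INCENP, CDC25C (adjusted p = 0.0766 without sgPIKFYVE-1 replicate 2), CENPA (0.0689 without sgNC replicate 2) and NUF2 (0.118 without sgNC replicate 2 and 0.0948 without sgPIKFYVE-1 replicate 2). With no variance trend CDK1 (adjusted p = 0.0519), CCNB2 (0.0592) and ASPM (0.0941) lost it as well.

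The transcription factors rose most. MYBL2, the B-MYB subunit that joins MuvB to activate late cell cycle genes, measured 14.002 and 19.996 CPM with sgNC and 33.9 and 30.7 CPM with sgPIKFYVE-1 (log2 fold change 0.91 ± 0.138 standard error, adjusted p = 2.82e-05). FOXM1, the forkhead factor of G2 genes, measured 48.2 and 46.2 CPM and then 88.7 and 89.2 CPM (0.90 ± 0.072, adjusted p = 7.19e-09). In neither gene did the groups overlap, and the FOXM1 samples of each group lay close together. In GENCODE release 29 on GRCh38, MYBL2 lies at chr20:43667019-43716496 on the forward strand and FOXM1 at chr12:2857681-2877155 on the reverse strand.

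All 6 cyclins, CDK1 and CDC25 genes rose. CDK1, the kinase that drives entry into mitosis, went from 29.5 and 24.4 CPM to 36.1 and 38.5 CPM (0.46 ± 0.107). CCNB1, its cyclin B1 partner, went from 83.9 and 75.4 CPM to 126 and 141 CPM (0.74 ± 0.0701). CCNA2, the cyclin A of S and G2 phase, went from 27.8 and 33.1 CPM to 47.6 and 55.4 CPM (0.74 ± 0.102). The groups were apart for each, with CDK1 the closest. The log2 fold changes of the others were 0.44 for CCNB2, the second B-type cyclin, 0.49 for CDC25B and 0.64 for CDC25C, the phosphatases that activate CDK1.

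Among the mitotic kinases all 4 rose. PLK1, which acts from centrosome maturation to cytokinesis, measured 28.0 and 33.2 CPM with sgNC and 47.8 and 43.5 CPM with sgPIKFYVE-1 (0.57 ± 0.0999). AURKA, the Aurora kinase of the spindle poles, measured 26.9 and 27.9 CPM and then 48.3 and 47.5 CPM (0.79 ± 0.0912, adjusted p = 1.06e-06), among the 5 largest changes of the group. NEK2, a centrosome kinase, changed by 0.62 and PBK, a mitotic MAPKK-like kinase, by 0.72 on the log2 scale.

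The chromosomal passenger complex corrects faulty attachments at centromeres, and all 4 of its genes rose, though not alike. CDCA8 (borealin) went from 30.3 and 27.4 CPM to 49.4 and 53.6 CPM (0.81 ± 0.0931, adjusted p = 8.72e-07), and BIRC5 (survivin) from 49.1 and 48.9 CPM to 78.8 and 78.3 CPM (0.67 ± 0.0725). Its kinase AURKB went only from 28.7 and 23.8 CPM to 33.3 and 33.8 CPM (0.35 ± 0.108, adjusted p = 0.0143), and the scaffold INCENP changed by 0.29. The AURKB call was lost without sgNC replicate 2 (adjusted p = 0.238), without either sgPIKFYVE-1 replicate (adjusted p = 0.0509 and 0.0606), with no variance trend and with no filter, and that of INCENP without sgNC replicate 1 (0.228) or sgPIKFYVE-1 replicate 1 (0.27).

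All 4 spindle assembly checkpoint genes rose by similar amounts, with log2 fold changes of 0.62 for the kinase BUB1, 0.72 for BUB1B (BUBR1), 0.71 for the kinase TTK (MPS1) and 0.76 for MAD2L1 (MAD2). The anaphase genes split. CDC20, the APC/C activator that the checkpoint restrains, went from 37.7 and 45.4 CPM to 72.3 and 73.0 CPM (0.80 ± 0.0871, adjusted p = 4.89e-07), and UBE2C, the E2 enzyme of the APC/C, changed by 0.64. Securin PTTG1 measured 67.7 and 64.5 CPM with sgNC and 70.7 and 76.2 CPM with sgPIKFYVE-1 (0.15 ± 0.0724, adjusted p = 0.108). Separase ESPL1, which securin inhibits, measured 24.8 and 25.4 CPM and then 28.6 and 28.1 CPM (0.17 ± 0.104, adjusted p = 0.208). Neither passed the test.

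At centromeres and kinetochores 5 of 7 tested genes rose. CENPA, the centromeric histone, changed by 0.58, the kinetochore proteins CENPE and CENPF by 0.37 and 0.48, and the microtubule-binding NDC80 and NUF2 by 0.52 and 0.29. HJURP, the chaperone that loads CENPA, measured 36.9 and 35.9 CPM with sgNC and 41.5 and 43.3 CPM with sgPIKFYVE-1 (0.22 ± 0.0883, adjusted p = 0.0563) and did not pass, nor did SPC24 of the NDC80 complex (0.31, adjusted p = 0.108). All 5 kinesins rose, with 0.63 for KIF11, the motor of spindle bipolarity, 0.49 for KIF20A and 0.50 for KIF23 at the central spindle, 0.52 for the depolymerase KIF2C and 0.68 for the chromokinesin KIF4A.

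Of 9 spindle and cytokinesis genes, 8 rose. TPX2, the activator of Aurora A on microtubules, changed by 0.74, the contractile ring scaffold ANLN by 0.69, the spindle proteins HMMR, CKAP2L, DLGAP5 and NUSAP1 by 0.66, 0.49, 0.39 and 0.34, and the midzone bundler PRC1 by 0.47. ASPM, a spindle pole protein, went from 176 and 168 CPM to 196 and 208 CPM (0.23 ± 0.0541, adjusted p = 0.00207), the smallest change that passed, though not with no variance trend. ECT2, the exchange factor that activates RhoA for cytokinesis, measured 99.5 and 99.0 CPM and then 104 and 113 CPM (0.12 ± 0.0638, adjusted p = 0.131), the smallest of the group. TOP2A, the topoisomerase that decatenates sister chromatids, went from 221 and 223 CPM to 306 and 327 CPM (0.51 ± 0.0496), and MKI67, the Ki-67 proliferation marker, from 199 and 195 CPM to 285 and 273 CPM (0.50 ± 0.0495).

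**Figure D2:**
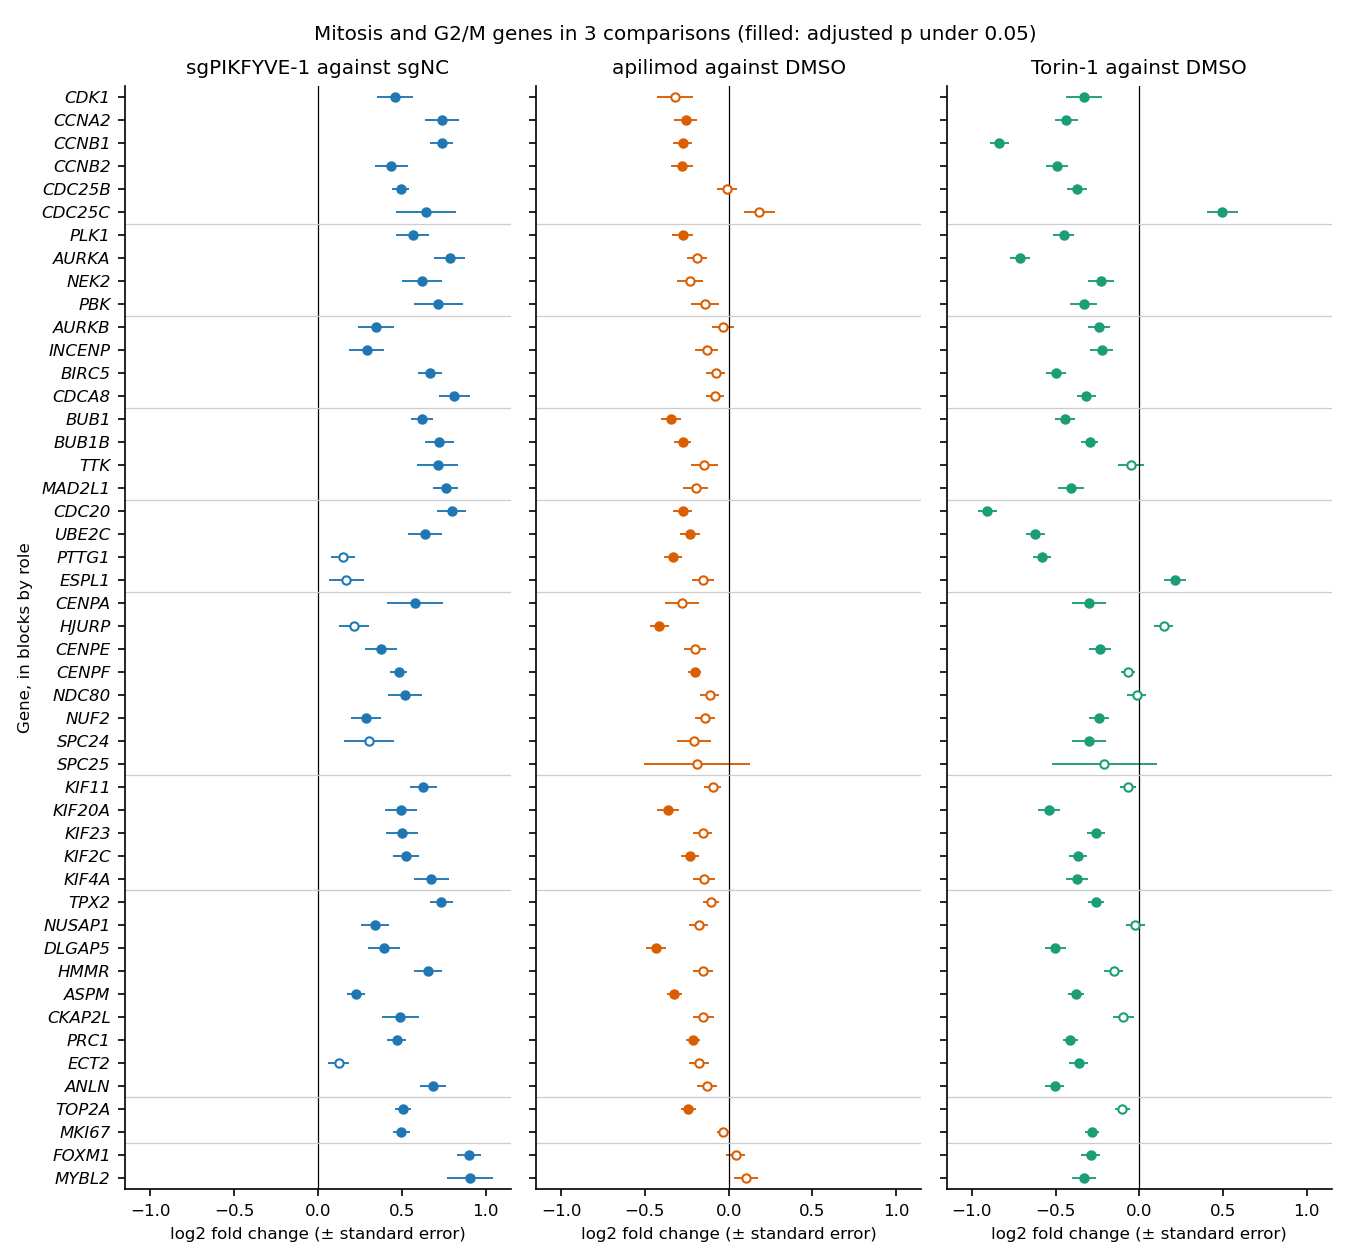
Log2 fold change with its standard error for each gene, in blocks by role, with sgPIKFYVE-1 against sgNC, apilimod against DMSO and Torin-1 against DMSO; filled points passed the test, and SPC25 was not tested in the knockdown table. The knockdown points all lie right of 0, the apilimod points mostly between -0.43 and 0, and the Torin-1 points spread from -0.91 for CDC20 to 0.49 for CDC25C.

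Promoters of the group were read for sequence features that its choice did not use. In RefSeq promoter windows (GRCh38.p14, 250 bases before to 50 after an annotated start), 41 of the 48 genes had an entry and 6 of them several, 51 windows in all; AURKA, TTK, BIRC5, TPX2, FOXM1, UBE2C and PBK had none. The CHR element was searched as TTTGAA or TTCGAA and the CCAAT box, bound by NF-Y, as CCAAT, both on either strand. CHR letters stood in the windows of 31 of 41 genes (75.6%), against 15.6% of the 10279 genes tested in the knockdown table that have a window and 19.5% of all 27305 genes. CCAAT stood in 34 of 41 (82.9%), against 43.6% and 39.7%, and both in the same window in 27 of 41 (65.9%), against 6.68% and 7.85%. By window rather than gene, the shares were 66.7%, 76.5% and 56.9% of 51, against 16.4%, 34.6% and 6.38% of 35116. CHR and CCAAT letters overlapped in 2 of the 51 windows. Other mitotic genes held them at like shares: of 39 with a window, 71.8% held CHR, 71.8% CCAAT and 56.4% both. Of 38 G1/S and replication genes, 7.89% held CHR, 63.2% CCAAT and 7.89% both.

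The 48 CHR matches lay at a median of -28.5 bases from the start and the 85 CCAAT matches at -85. These are counted per window. A site shared by overlapping windows of a gene, as in ECT2, CDC25C, PTTG1 and AURKB, enters once per window, each time at another distance. Distinct sites are therefore fewer. Letters alone do not show a bound site. The printed windows are those of the 2 genes with the largest knockdown change that had an entry and of the 2 with the smallest (the first entry where there are several), with CHR and CCAAT letters in capitals. All are written on the gene's strand, which here is the forward strand: MYBL2 at chr20:43666864-43667163, CDCA8 at chr1:37692266-37692565, ECT2 at chr3:172750476-172750775 and PTTG1 at chr5:160421605-160421904.
MYBL2: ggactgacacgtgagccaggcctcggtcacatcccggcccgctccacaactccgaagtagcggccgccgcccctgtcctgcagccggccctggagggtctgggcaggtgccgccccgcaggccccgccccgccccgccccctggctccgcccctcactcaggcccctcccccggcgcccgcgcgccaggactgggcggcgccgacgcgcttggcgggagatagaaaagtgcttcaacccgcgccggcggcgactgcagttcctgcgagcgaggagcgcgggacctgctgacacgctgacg
CDCA8: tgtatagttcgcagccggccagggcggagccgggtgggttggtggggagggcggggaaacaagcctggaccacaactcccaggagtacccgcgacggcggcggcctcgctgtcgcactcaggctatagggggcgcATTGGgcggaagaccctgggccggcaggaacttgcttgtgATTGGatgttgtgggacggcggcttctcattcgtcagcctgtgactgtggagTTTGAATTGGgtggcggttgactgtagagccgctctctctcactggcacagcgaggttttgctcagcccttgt
ECT2: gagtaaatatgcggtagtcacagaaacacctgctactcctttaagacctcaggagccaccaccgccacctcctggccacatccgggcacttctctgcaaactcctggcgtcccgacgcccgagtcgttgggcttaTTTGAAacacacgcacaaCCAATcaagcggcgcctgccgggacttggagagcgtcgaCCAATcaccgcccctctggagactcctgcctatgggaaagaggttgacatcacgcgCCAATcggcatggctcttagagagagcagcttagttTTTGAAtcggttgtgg
PTTG1: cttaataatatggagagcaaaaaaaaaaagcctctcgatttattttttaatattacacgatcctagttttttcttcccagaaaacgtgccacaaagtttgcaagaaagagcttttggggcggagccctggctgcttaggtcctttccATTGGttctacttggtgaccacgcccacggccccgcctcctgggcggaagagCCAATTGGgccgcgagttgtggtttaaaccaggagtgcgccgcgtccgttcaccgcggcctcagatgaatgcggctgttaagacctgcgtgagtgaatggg
The MYBL2 window, of the gene that rose most, holds neither motif as searched. CDCA8 holds 1 CHR match 23 bases before the start, sharing a base with a CCAAT match on the opposite strand, and 3 CCAAT matches in all. ECT2, which changed least, holds 2 CHR and 3 CCAAT matches. PTTG1 holds 3 CCAAT matches and none of the CHR letters searched, and other forms of the element were not searched.

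Genes with and without the CHR letters searched had similar medians. Other forms of the element were not searched, so a gene without these letters may still hold a CHR. The split therefore cannot show whether the element matters. With sgPIKFYVE-1 the median log2 fold change was 0.50 for the 30 genes with CHR letters and 0.51 for the 10 without. With apilimod it was -0.18 for 31 genes with and -0.23 for 10 without, and with Torin-1 -0.30 and -0.35. These medians are descriptions with no test.

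**Figure D3:**
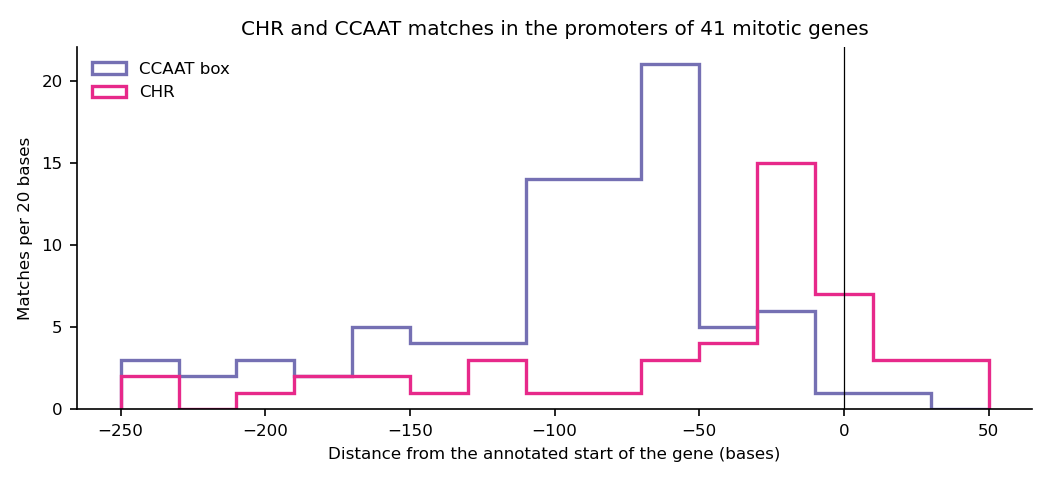
Positions of CHR and CCAAT matches relative to the annotated start in 51 promoter windows of 41 genes, counted in steps of 20 bases. A site shared by overlapping windows of a gene enters once per window. CCAAT matches crowd upstream of the start and CHR matches close to it, with medians of -85 and -28.5 bases.

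Apilimod, which inhibits the kinase that the guide silences, went with lower rather than higher levels. Of 48 genes tested against DMSO, 17 fell and 0 rose, while 2.79% of all 13520 genes fell and 5.75% rose. At an unadjusted p under 0.05, 33 were lower and 0 higher, while 9.56% of all genes were lower and 11.7% higher. Both apilimod samples lay below both DMSO samples for 41 of the 48, as they did for 25.9% of all genes, and the median log2 fold change was -0.19, beside -0.006 for all genes. The changes were small and the count of 17 depended on the samples and the variance model: it was 9 without DMSO replicate 1, 7 without DMSO replicate 2, 10 with no filter on low values and 2 with no variance trend. DLGAP5 and HJURP were called under every alternative, and BUB1, KIF20A, PTTG1 and ASPM also kept their calls with each sample left out. The other 11 each lost theirs without at least 1 of the DMSO and apilimod samples.

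The lowest of all was DLGAP5, a microtubule-associated spindle protein, at 139 and 136 CPM with DMSO and 104 and 99.5 CPM with apilimod (-0.43 ± 0.0608, adjusted p = 0.00031). HJURP measured 151 and 160 CPM and then 117 and 116 CPM (-0.41 ± 0.0567, adjusted p = 0.000256). KIF20A, the kinesin of the central spindle, went from 187 and 180 CPM to 150 and 136 CPM (-0.36 ± 0.0629). In these and the next genes no apilimod sample reached a DMSO sample. BUB1 went from 277 and 253 CPM to 205 and 211 CPM (-0.35 ± 0.0587) and PTTG1 from 217 and 211 CPM to 168 and 172 CPM (-0.33 ± 0.0534, adjusted p = 0.00104). ASPM, at 757 and 767 CPM with DMSO, measured 595 and 622 CPM (-0.32 ± 0.0452).

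The cyclins fell together. CCNB1 went from 389 and 386 CPM to 302 and 339 CPM (-0.28 ± 0.0577), CCNA2 from 162 and 166 CPM to 131 and 143 CPM (-0.26 ± 0.0688), and CCNB2 changed by -0.28. CDK1 itself measured 143 and 150 CPM with DMSO and 104 and 132 CPM with apilimod (-0.32 ± 0.108, adjusted p = 0.0927). Its apilimod samples lay far apart, and it did not pass. CDC20 went from 209 and 212 CPM to 180 and 168 CPM (-0.27 ± 0.0571), PLK1 from 176 and 172 CPM to 152 and 136 CPM (-0.28 ± 0.0634) and TOP2A from 1073 and 1113 CPM to 904 and 945 CPM (-0.24 ± 0.0458). UBE2C, BUB1B, KIF2C, CENPF and PRC1 completed the 17, with log2 fold changes of -0.23, -0.28, -0.23, -0.20 and -0.21.

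Several regulators stood at the DMSO level or just above it. CDC25C measured 31.95 and 32.01 CPM with DMSO and 38.8 and 34.2 CPM with apilimod (0.18 ± 0.0921, adjusted p = 0.274), MYBL2 71.6 and 68.0 CPM and then 76.5 and 73.6 CPM (0.10 ± 0.0724), and FOXM1 259 and 234 CPM and then 260 and 247 CPM (0.04 ± 0.0582). None of the 3 passed the test, and the sign for FOXM1 turned with quantile normalization. CDC25B measured 235 and 227 CPM with DMSO and 241 and 220 CPM with apilimod (-0.01 ± 0.0603), MKI67 993 and 969 CPM and then 985 and 935 CPM (-0.03 ± 0.0398), and AURKB 125 and 117 CPM and then 123 and 113 CPM (-0.03 ± 0.0655), with overlapping groups in each. None of the chromosomal passenger genes passed: BIRC5 measured 218 and 223 CPM with DMSO and 209 and 208 CPM with apilimod (-0.08 ± 0.0581), CDCA8 changed by -0.08 and INCENP by -0.13. AURKA measured 144 and 147 CPM and then 128 and 128 CPM (-0.19 ± 0.059, adjusted p = 0.0661).

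The remaining genes ranged from -0.28 for CENPA to -0.10 for KIF11 and did not pass. They were NEK2 (-0.23), PBK and TTK (both -0.14), MAD2L1 (-0.20), ESPL1 (-0.15), CENPE (-0.20), NDC80 (-0.11), NUF2 (-0.14), SPC24 (-0.21), KIF23 (-0.16), KIF4A (-0.15), TPX2 (-0.11), NUSAP1 (-0.18), HMMR and CKAP2L (both -0.15), ECT2 (-0.18) and ANLN (-0.13), besides SPC25 at 1.75 and 1.97 CPM with DMSO and 0.734 and 2.61 CPM with apilimod.

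The signs with the guide and with the inhibitor were opposite for most of the group. Of the 47 genes measured in both tables, 15 rose in the knockdown and fell with apilimod, as 57 of all 13235 genes did (0.431%). In 41 of the 47 both sgPIKFYVE-1 samples lay above sgNC and both apilimod samples below DMSO, as in 6.61% of all genes. The comparisons have separate controls but differ in line, duration, selection and baseline level of the group, which cannot be told apart here, and the difference between them was not tested.

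Most of the group was lower with Torin-1, and a few genes stood above DMSO. Against the same DMSO samples, 36 of 48 genes fell and 2 rose, while 21.8% of all genes fell and 16.6% rose. Both Torin-1 samples lay below both DMSO samples for 42 of the 48, as for 36.6% of all genes, and the median log2 fold change was -0.31, beside -0.012 for all genes. Of the calls, 28 held under every alternative, 27 of them lower and CDC25C higher. Besides CDK1 and ESPL1, the calls lost with a sample left out were AURKB (adjusted p = 0.122 without DMSO replicate 1), CENPA, CENPE, NUF2 and SPC24 (0.26, 0.146, 0.131 and 0.325 without DMSO replicate 2; CENPA also without Torin-1 replicate 2 and SPC24 also without Torin-1 replicate 1), PBK (0.0531 without Torin-1 replicate 1), INCENP (0.0692 to 0.137 without either DMSO replicate or Torin-1 replicate 2) and NEK2 (0.11 to 0.213 without either DMSO replicate or Torin-1 replicate 1).

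CDC20 was the lowest gene. In GENCODE release 29 it lies at chr1:43358955-43363203 on the forward strand of GRCh38, and it measured 209 and 212 CPM with DMSO and 114 and 110 CPM with Torin-1 (-0.91 ± 0.0571, adjusted p = 4.89e-08). CCNB1, a substrate of the CDC20-bound APC/C, went from 389 and 386 CPM to 210 and 223 CPM (-0.84 ± 0.0577, adjusted p = 1.15e-07), and AURKA from 144 and 147 CPM to 89.8 and 87.0 CPM (-0.71 ± 0.059). UBE2C went from 150 and 152 CPM to 99.5 and 96.5 CPM (-0.62 ± 0.0581) and PTTG1 from 217 and 211 CPM to 141 and 145 CPM (-0.58 ± 0.0534). In all 5 the Torin-1 samples lay close together and well below DMSO.

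ESPL1, the protease on the same pathway, went the other way, from 104 and 107 CPM to 128 and 117 CPM (0.21 ± 0.0662, adjusted p = 0.022), a call lost without either DMSO replicate (adjusted p = 0.136 and 0.0784), without Torin-1 replicate 1, with no variance trend and with no filter. CDC25C rose from 31.95 and 32.01 CPM to 46.1 and 44.8 CPM (0.49 ± 0.0921, adjusted p = 0.000811), whereas its relative CDC25B changed by -0.37 and fell. HJURP measured 151 and 160 CPM with DMSO and 172 and 172 CPM with Torin-1 (0.15 ± 0.0567, adjusted p = 0.0555). NDC80 measured 138 and 135 CPM and then 134 and 137 CPM (-0.01 ± 0.0568), and NUSAP1 249 and 242 CPM and then 238 and 245 CPM (-0.02 ± 0.0546). Both had overlapping groups, and their signs turned with quantile normalization, as did that of TTK (-0.05).

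Other cyclins and kinases fell. CCNA2 went from 162 and 166 CPM to 114 and 129 CPM (-0.44 ± 0.0688), PLK1 from 176 and 172 CPM to 129 and 125 CPM (-0.45 ± 0.0634), and CDK1 from 143 and 150 CPM to 104 and 130 CPM (-0.33 ± 0.108, adjusted p = 0.0266). The CDK1 call was lost without Torin-1 replicate 1 (adjusted p = 0.265), without either DMSO replicate (adjusted p = 0.0578 and 0.117), with quantile normalization, with no variance trend and with no filter. CCNB2 changed by -0.49, NEK2 by -0.23 and PBK by -0.33, all past the threshold.

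The chromosomal passenger genes, which had not passed with apilimod, all fell. BIRC5 measured 218 and 223 CPM with DMSO and 164 and 148 CPM with Torin-1 (-0.50 ± 0.0581, adjusted p = 1.74e-05), and AURKB 125 and 117 CPM and then 103 and 101 CPM (-0.24 ± 0.0655). CDCA8 changed by -0.32 and INCENP by -0.22. Compared directly, BIRC5, AURKB and CDCA8 were lower with Torin-1 than with apilimod past the threshold (-0.42, -0.21 and -0.23), and INCENP was not (-0.09, adjusted p = 0.298). The direct AURKB call was lost without Torin-1 replicate 2 (adjusted p = 0.0619) or apilimod replicate 1 (adjusted p = 0.149). The transcription factors fell as well, FOXM1 from 259 and 234 CPM to 204 and 197 CPM (-0.29 ± 0.0582) and MYBL2 from 71.6 and 68.0 CPM to 56.3 and 54.5 CPM (-0.33 ± 0.0724). MKI67 went from 993 and 969 CPM to 811 and 801 CPM (-0.28 ± 0.0398), while TOP2A, at 975 and 1064 CPM with Torin-1, did not pass (-0.10 ± 0.0458, adjusted p = 0.0977).

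Checkpoint genes BUB1, BUB1B and MAD2L1 fell, with log2 fold changes of -0.45, -0.30 and -0.41. Of the 8 centromere and kinetochore genes, CENPA, CENPE, NUF2 and SPC24 fell (-0.30, -0.24, -0.24 and -0.30), while CENPF (-0.07), HJURP, NDC80 and SPC25 (1.39 and 1.56 CPM with Torin-1) did not pass. Among kinesins KIF20A changed by -0.54, KIF2C by -0.36, KIF4A by -0.37 and KIF23 by -0.26, all called, and KIF11 by -0.07, not called. Of the spindle and cytokinesis genes, ANLN (-0.51), DLGAP5 (-0.50), PRC1 (-0.41), ASPM (-0.38), ECT2 (-0.36) and TPX2 (-0.26) fell, and HMMR (-0.15), CKAP2L (-0.10) and NUSAP1 did not pass.

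The drugs share their DMSO samples, so they were compared with each other directly. With Torin-1 against apilimod, 22 genes were lower and 6 higher past the threshold, while 26.2% of all 13520 genes were lower and 20.5% higher. The share of the group called lower was thus closer to the background than in the comparisons with DMSO. CDC20 was lowest in relative terms (log2 difference -0.63 ± 0.0571), followed by CCNB1 (-0.56 ± 0.0577), AURKA (-0.52 ± 0.059), MYBL2 (-0.43), BIRC5 (-0.42), UBE2C (-0.39), ANLN (-0.38), CDC25B (-0.36) and FOXM1 (-0.33). HJURP was the highest (0.56 ± 0.0567, adjusted p = 2.51e-06), with 117 and 116 CPM under apilimod and 172 and 172 CPM under Torin-1, followed by ESPL1 (0.37), CDC25C (0.31), NUSAP1 (0.16), TOP2A (0.14) and CENPF (0.13). DLGAP5 differed by -0.07 ± 0.0608 and CDK1 by -0.01 ± 0.108, neither past the threshold, and both signs turned with quantile normalization. Of the 28 calls 14 held under every alternative, among them CDC20, CCNB1, AURKA, HJURP and ESPL1, while those of CDC25C, NUSAP1, TOP2A and CENPF were lost without some of the Torin-1 or apilimod samples. Quantile normalization moved the split from 22 lower and 6 higher to 12 lower and 8 higher, and with no variance trend 15 genes were called.

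**Figure D4:**
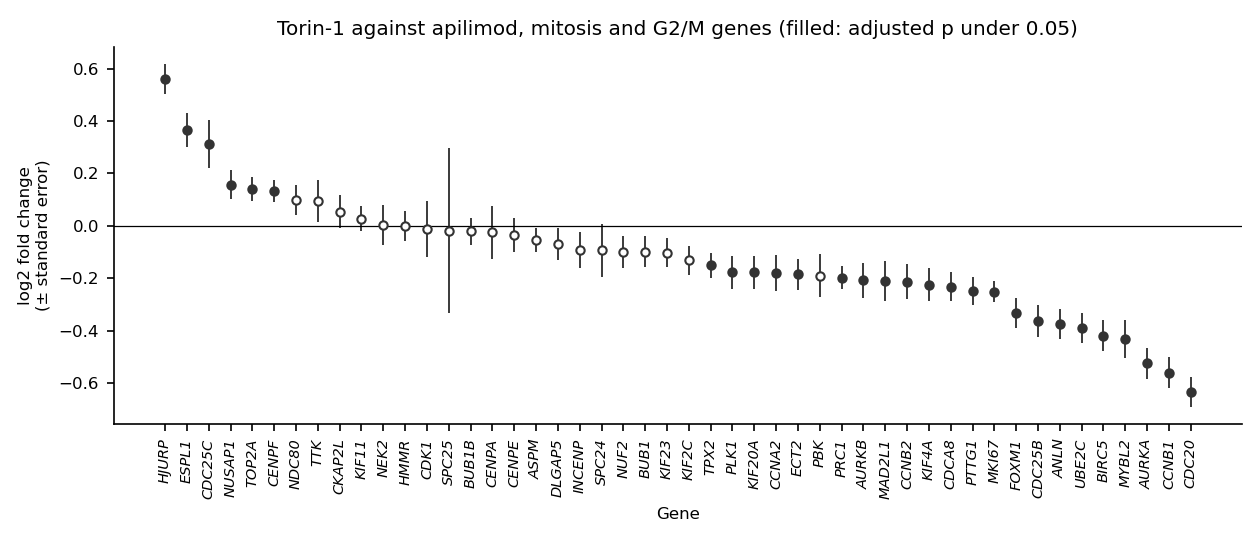
Log2 difference between Torin-1 and apilimod with its standard error for the 48 genes, ordered by size, with filled points past the threshold. HJURP, ESPL1 and CDC25C stand at the Torin-1-high end and CDC20, CCNB1 and AURKA at the other, at -0.63, -0.56 and -0.52.

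Other genes of the cell cycle were read from lists that hold no member. Of 50 other mitotic genes, 42 rose and 0 fell in the knockdown (median 0.56), while 21.6% of all genes rose and 20.9% fell. The list ran from BUB3 at -0.14 (not called) to OIP5, which recruits CENPA loading factors, at 1.10. With apilimod 2 rose and 8 fell (median -0.13), 4% and 16% beside 5.75% and 2.79% of all genes. The list ran from SKA1, a kinetochore coupling protein (-0.54), to the centromere protein CENPI (0.42). With Torin-1 2 rose and 29 fell (median -0.26), 4% and 58% beside 16.6% and 21.8% of all genes. The list ran from the CDK subunit CKS2 (-0.88) to the centromere protein CENPU (0.53). WEE1, the kinase that restrains CDK1, measured 28.2 and 27.3 CPM with sgNC and 33.6 and 42.5 CPM with sgPIKFYVE-1 (0.43, called), and 84.2 and 83.2 CPM with DMSO against 98.2 and 103 CPM with Torin-1 (0.26, called) and 72.6 and 72.5 CPM with apilimod (-0.20, not called). PKMYT1, the related inhibitory kinase, changed by 0.54 in the knockdown (called), by -0.09 with apilimod and by 0.12 with Torin-1 (neither called).

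G1/S and replication genes rose with sgPIKFYVE-1 as well. Of 46 tested, 39 rose and 0 fell (median 0.64), while 21.6% of all genes rose and 20.9% fell. The list ran from the polymerase subunit POLD1 (0.09, not called) to the replication helicase subunit GINS3 (1.09). MCM2, of the replicative helicase, went from 34.6 and 36.1 CPM to 80.2 and 70.4 CPM (1.07), PCNA, the polymerase clamp, changed by 0.65, CCNE2 by 0.64, CCND1 by 0.16 and CCNE1 by 0.35 (not called). With apilimod 1 of the 46 rose and 2 fell (median -0.04). These shares of 2.17% and 4.35% lay near those of all genes (5.75% and 2.79%). The list ran from CCNE2 at -0.41 (called) to the licensing factor CDT1 at 0.28 (not called). CCNE1 (-0.41), CCND1 (-0.17), MCM2 (-0.02) and PCNA (-0.03) were not called. With Torin-1 5 rose and 22 fell (median -0.17), 10.9% and 47.8% beside 16.6% and 21.8% of all genes. The list ran from MCM6 at -0.60 to CDT1, which went from 46.4 and 41.7 CPM to 120 and 111 CPM (1.37). CCND1 (-0.53), MCM2 (-0.42) and PCNA (-0.15) fell, and CCNE1 (0.17) and CCNE2 (-0.19) did not pass. The call of PCNA with Torin-1 was lost under several alternatives, each left-out DMSO or Torin-1 sample among them.

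**Figure D5:**
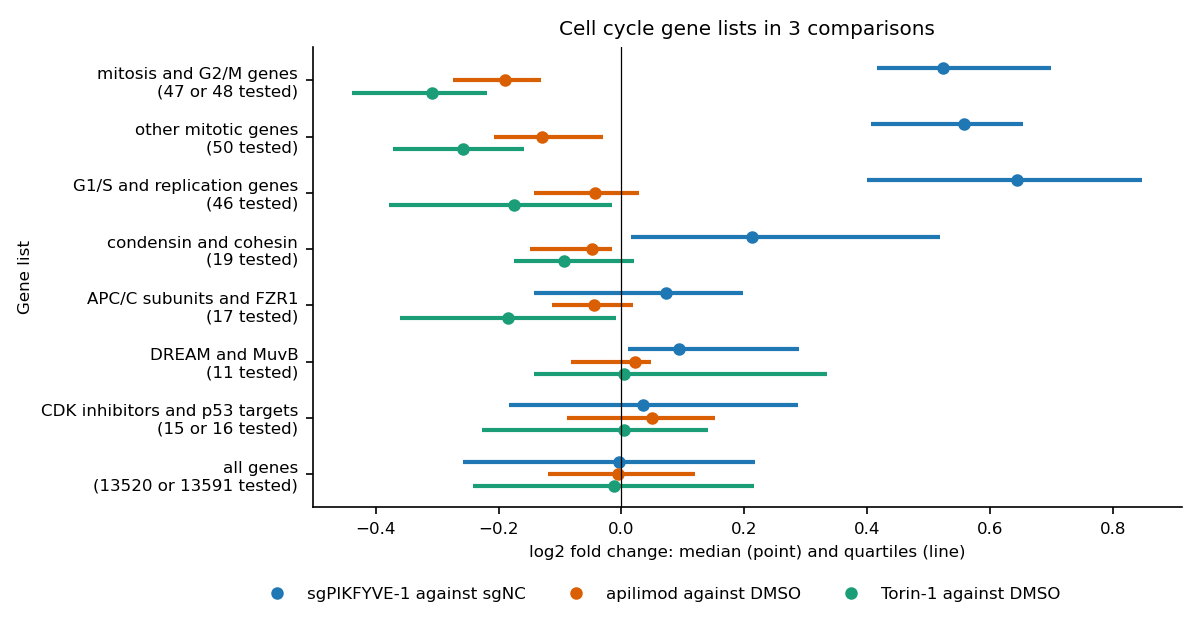
Median (point) and quartiles (line) of the log2 fold change in each gene list, with all genes tested at the bottom. The knockdown medians of the mitotic and G1/S lists lie at 0.52 to 0.64, those of the mitotic lists with the drugs at -0.13 to -0.31, and all-gene medians near 0.

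The DREAM and MuvB list holds the subunits that repress or activate the group. In the knockdown 3 of 11 rose and 1 fell, shares of 27.3% and 9.09% beside 21.6% and 20.9% of all genes: LIN54, the CHR-binding subunit, went from 19.5 and 22.2 CPM to 34.5 and 36.5 CPM (0.74), LIN9 of the MuvB core changed by 0.62, TFDP1 by 0.30, and RBL2 (p130), the pocket protein of DREAM in resting cells, went from 123 and 133 CPM to 95.6 and 95.4 CPM (-0.42 ± 0.0619, adjusted p = 1.86e-05). With Torin-1 RBL2 rose from 85.9 and 91.2 CPM to 135 and 142 CPM (0.64 ± 0.0672, adjusted p = 6.52e-06) and its relative RBL1 (p107) rose by 0.46, while TFDP1 (-0.56) and E2F4 (-0.43), which pair at E2F sites, fell. With apilimod, where 5.75% of all genes rose and 2.79% fell, limma called 0 of the 11 (2 lower at an unadjusted p under 0.05), from LIN9 at -0.29 to LIN54 at 0.10, with RBL2 at -0.12, RBL1 at 0.05 and E2F4 at -0.05. E2F4 (-0.02) and RBL1 (0.22) were not called in the knockdown, nor LIN9 (-0.04) and LIN54 (0.14) with Torin-1.

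Among CDK inhibitors and p53 targets, CDKN1A (p21), which blocks CDKs and can lead to repression of the group through DREAM, rose most in the knockdown, in which the group rose too. It measured 10.01 and 8.47 CPM with sgNC and 37.9 and 31.6 CPM with sgPIKFYVE-1 (1.80 ± 0.136, adjusted p = 2.95e-09), and 5.61 and 6.55 CPM with DMSO, 10.9 and 9.45 CPM with apilimod (0.66 ± 0.188, adjusted p = 0.0453) and 4.01 and 2.85 CPM with Torin-1 (-0.69 ± 0.188, adjusted p = 0.0108). The apilimod call was lost with any DMSO or apilimod sample left out, with no filter, with no variance trend, with the lower pseudocount and with quantile normalization (adjusted p from 0.0544 to 0.256), and the Torin-1 call without DMSO replicate 2 or Torin-1 replicate 2 (adjusted p = 0.0822 and 0.0871) or with no filter. CDKN1B (p27) rose with Torin-1 from 34.9 and 38.1 CPM to 56.3 and 60.6 CPM (0.66 ± 0.101) and was not called in the knockdown (-0.13) or with apilimod (-0.17). CDKN2C (p18) rose with Torin-1 (0.40) and was not called in the knockdown (0.43) or with apilimod (-0.02), and CDKN2D (p19) was called in none of these comparisons (0.03, 0.05 and -0.09). CDKN2B (p15) fell in the knockdown (-0.94) and rose with Torin-1 (0.67), and TP53INP1, a p53 target, was the list's highest with apilimod (1.29). Over the list 5 of 16 rose and 3 fell in the knockdown, 3 of 15 rose and 1 fell with apilimod, where PLK2 was lowest (-0.45), and 3 of 15 rose and 3 fell with Torin-1. With counts this small, the shares in the knockdown (31.2% and 18.8%) and with Torin-1 lay near those of all genes (21.6% and 20.9%, and 16.6% and 21.8%). With apilimod the shares were 20% and 6.67%, beside 5.75% and 2.79% of all genes.

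Some calls of the genes named from these other lists were lost with a sample left out. In the knockdown these were CCND1, CCNE2, CENPU, LIN9, PKMYT1, SKA1, TFDP1, TP53INP1 and WEE1, with apilimod CCNE2, PLK2 and SKA1, and with Torin-1 RBL1 (adjusted p = 0.094 without Torin-1 replicate 1) and WEE1 (adjusted p = 0.0549 without DMSO replicate 2).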

How the data were processed

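The data are RNA-seq libraries from QGP-1 cells, 10 samples in 5 groups of 2. Per the labels ribosomal RNA was depleted, whereas the methods describe oligo(dT) selection. The authors demultiplexed with bcl2fastq 2.20, trimmed reads with Trimmomatic, obtained transcript abundances, added these up per gene and scaled them with TMM (calcNormFactors in edgeR); the quantifier is not given in the sources used here. The deposited values are a signal on the CPM scale, in 1 table for the knockdown and 1 for the drugs. Of low values, 67.9% to 71.5% were whole reads within 0.02 read, so no count model was fitted; the planned limma test on the log scale was kept although plain CPM had been assumed. Replicates differed by 1.87 to 2.61 times the Poisson expectation (median chi-square), so no pair was a duplicate. Depth limits cover counting error only.

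Genes averaging 1 CPM or more in their table were tested on log2(CPM + 1), which understates changes of low genes, with limma 3.58.1 in R 4.3.3 (lmFit, eBayes with trend) on 4 knockdown or 6 drug samples, p-values being adjusted across the whole table by Benjamini-Hochberg and called at 0.05. The procedure was also run on simulated whole counts of fixed depth and spread. The deposited values differ from these, so that run does not check the calls given here. The 48 genes and the other lists were chosen with earlier results of these data known. Per-sample values are given for 12 core genes and, per comparison with a control, the 5 highest and 5 lowest; a few others, such as ASPM with apilimod and NCAPH in the knockdown, were added after their values were seen. Of the other lists the text names regulators fixed in the design and each list's highest and lowest gene. Promoters are those of the extremes of the knockdown. Alternatives were a pseudocount of 0.1, no filter, quantile normalization, no variance trend, a replicate block, only the compared groups, and each sample left out. A log2 fold change of at least 1.5 was counted apart and is not meant by "every alternative". Plots used Python 3.11.15 and matplotlib 3.10.9.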

Additional observations from a re-analysis of the deposited data

Results flagged for a closer look

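In 41 of 47 genes both sgPIKFYVE-1 samples lay above both sgNC samples while both apilimod samples lay below both DMSO samples. Of all 13235 genes measured in both tables, 875 (6.61%) did so, and 15 of the 47 were called in both comparisons. Most of the apilimod calls depended on the settings. Only those of DLGAP5 and HJURP held under every alternative, and HJURP was not called in the knockdown. The difference between the comparisons was not tested, since the tables were normalized separately and have separate controls.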

How the results depend on the processing

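Over the alternatives run, the knockdown median stayed positive and those of both drugs negative. Requiring a log2 fold change of at least 1.5 left 0 genes of the group in each of the 4 comparisons. With apilimod the count of 17 became 10 with no filter, 2 with no variance trend, 26 with a replicate block and 7 to 19 with a sample left out. For Torin-1 against apilimod, 15 were called with no variance trend against 28. Its median went from -0.12 to -0.04 with quantile normalization, where all genes called with apilimod also split 658 higher and 536 lower against 778 and 377. With a sample left out, the knockdown gave 39 to 41 calls, Torin-1 30 to 38 and Torin-1 against apilimod 21 to 24. Among the values given in the text, signs turned for genes that were not called: with quantile normalization, FOXM1 with apilimod (-0.045) and NDC80 (0.027), NUSAP1 (0.018) and TTK (0.0046) with Torin-1; with a sample left out, with apilimod, FOXM1 (-0.03 to 0.11), AURKB (-0.092 to 0.028), CDC25B (-0.074 to 0.058), MKI67 (-0.069 to 0.0059) and SPC25 (-0.72 to 0.34), and with Torin-1 NDC80 (-0.032 to 0.0032) and TTK (-0.16 to 0.061). For Torin-1 against apilimod, 7 uncalled genes turned with quantile normalization, CDK1 (0.062) and DLGAP5 (0.0067) among them (18 genes higher and 30 lower, against 11 and 37), SPC25 with the lower pseudocount, and 1 to 4 with a Torin-1 or apilimod sample left out, CDK1 (-0.19 to 0.16) among them. The replicate block gave 42 calls in the knockdown, 41 with Torin-1 and 30 for Torin-1 against apilimod. Same-numbered samples deviated together by a correlation of 0.0017 for sgNC with sgPIKFYVE-1 and 0.08 for DMSO with either drug. For Torin-1 with apilimod it was 0.26. The main fit did not pair samples by number. For Torin-1 against apilimod, variation shared by same-numbered samples therefore stayed in the standard errors. Whether those samples pair was not tested. Over all genes followed, 2562 values kept their side of the threshold, 277 lost and 33 gained a call, and 17 were classed as reversed.

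With 2 samples a group, small changes such as those with apilimod lie near the limit of the test. SPC25 lay near the filter and passed it in the drug table only. A left-out sample leaves a lone sample assumed to vary like the others.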

Other observations

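Condensin and cohesin genes, which compact chromosomes and hold sister chromatids together, rose in the knockdown for 10 of 19, with 1 lower (median 0.21), beside 21.6% of all genes higher and 20.9% lower. They ranged from the cohesin loader MAU2 (-0.29) to CDCA5 (sororin), which protects cohesion and went from 21.2 and 21.7 CPM to 38.7 and 34.4 CPM (0.74). NCAPH, a condensin I subunit, changed by 0.73 and rose. The calls of MAU2 in the knockdown (adjusted p = 0.164 without sgNC replicate 1 and 0.22 without sgPIKFYVE-1 replicate 2) and of ANAPC2 and ANAPC13, given next, were lost with some samples left out, and that of CDCA5 with Torin-1 without DMSO replicate 2 (adjusted p = 0.0822). With Torin-1 3 rose and 5 fell (median -0.09), 15.8% and 26.3% beside 16.6% and 21.8% of all genes, from NCAPH (-0.57) to the cohesin subunit STAG2 (0.53), and CDCA5 (0.26) and MAU2 (0.42) rose. With apilimod, where 5.75% of all genes rose and 2.79% fell, limma called 0 of 19. With the p left unadjusted at 0.05, 5 were lower and 0 higher, beside 9.56% and 11.7% of all genes. The list ran from RAD21 at -0.19 to SMC3 at 0.05.

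The APC/C is the ligase that CDC20 activates. Of its subunits and regulators 5 of 17 rose and 2 fell in the knockdown (median 0.07), shares of 29.4% and 11.8% near those of all genes, from ANAPC2 (-0.33) to ANAPC13 (0.34). With Torin-1 8 fell and 0 rose (median -0.18), 47.1% and 0% beside 21.8% and 16.6% of all genes. The E2 enzyme UBE2S was lowest (-0.65) and ANAPC2 highest (0.14, not called). With apilimod 1 fell and 0 rose, 5.88% and 0% beside 2.79% and 5.75% of all genes. The gene that fell was the APC/C inhibitor FBXO5 (EMI1, -0.32). Its call was lost with any DMSO or apilimod sample left out. ANAPC16 was highest (0.19, not called). FZR1 (CDH1), which activates the APC/C after mitosis, was called in none of these comparisons, at -0.21 in the knockdown (adjusted p = 0.0537), -0.08 with apilimod and -0.02 with Torin-1.

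Across the 47 genes measured in both tables, Spearman's rho between the knockdown and apilimod log2 fold changes was 0.30, and between knockdown and Torin-1 -0.25, descriptions over genes that share libraries and depth. With the log2 control level, rho was -0.11 for the knockdown, -0.12 for apilimod and -0.23 for Torin-1. The same control samples enter both terms with opposite sign, which by itself pulls rho below 0. No dependence on level can be read from these values.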
